A study of Mus musculus with 24 samples.

Results

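Expression of 10 genes of de novo fatty acid synthesis was followed by RNA-seq in mouse adipocyte precursors before and after differentiation, with and without the transcription factor NFIA. The genes were taken by name, with earlier results of these data known: Acly, Acaca, Acacb, Fasn, Scd1, Scd2, Elovl6, Me1, Thrsp and Mlxipl, 10 of the 24825 genes listed in each library. At day 7 of differentiation 9 of them were lower in Cre than in ctrl cells, higher again with full-length NFIA, and lowest with the mutant Δpro#3. Elovl6 was the exception, with lower levels at day 7 than at day 0 in all 4 cell types. Scd1 moved over the widest range among the abundant members, from 94.8 FPKM with the mutant to 1940 FPKM with full-length NFIA.

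De novo lipogenesis turns citrate exported from mitochondria into fatty acids that adipocytes store as triglyceride. Acly (ATP citrate lyase) splits citrate into acetyl-CoA, Acaca and Acacb (acetyl-CoA carboxylases) make malonyl-CoA from it, and Fasn (fatty acid synthase) joins these units into palmitate using NADPH. Me1 (cytosolic malic enzyme) is a source of that NADPH, Elovl6 lengthens palmitate to stearate, and Scd1 and Scd2 are desaturases that make monounsaturated fatty acids. Thrsp (Spot 14) is a small lipogenic protein whose gene responds to thyroid hormone, and Mlxipl encodes ChREBP, a transcription factor that raises lipogenic genes when carbohydrate is plentiful. The pathway is low in precursors and switched on during adipocyte differentiation.

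All cells were stromal vascular fraction cells of inguinal white adipose tissue (ingSVF) from Nfia flox/flox mice, immortalised with SV40 large T antigen, so the controls carried the floxed allele and the antigen too. The ctrl cells received an empty retroviral vector, Cre cells a retroviral Cre recombinase, Cre + NFIA cells also FLAG-tagged full-length NFIA, and Cre + Δpro#3 cells a FLAG-tagged NFIA lacking a C-terminal proline-rich segment called pro#3. Day 0 was before induction, and by day 7 all 4 cell types had received a thermogenic cocktail with isobutylmethylxanthine, indomethacin, dexamethasone, insulin, T3 and rosiglitazone. Each of the 8 groups held 3 libraries of polyA RNA, 24 in all. The age of the mice and the number of separate cell preparations are not given in the sources used here, so p-values measure the spread between these libraries, which may be technical.

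Promoter sequences are shown first, because transcription factors of this pathway, of the CCAAT box and of the NFI family read short words near the start site. RefSeq windows of 300 bases on GRCm38.p6, from 250 bases before to 50 after the start, covered 8 of the 10 genes in 10 windows, leaving out Scd1 and Scd2. The words searched on both strands were the E-box CACGTG, the sterol regulatory element (TCAC, any base, CCAC), the NF-Y box CCAAT, the NFI single site TTGGCA, the NFI palindrome (TTGGC, 5 bases, GCCAA) and the nuclear receptor single site AGGTCA, alone or as a direct repeat spaced by 1 or 4 bases. The windows below belong to the gene of the synthase (Fasn, chr11:120824498-120824797, minus strand), the gene with the widest relative range (Thrsp, chr7:97417501-97417800, minus strand), the regulator (Mlxipl, chr5:135089640-135089939, plus strand, of its 2 windows the one with the E-box) and the gene that moved the other way (Elovl6, chr3:129532136-129532435, plus strand). Capitals mark the matched words.
Fasn: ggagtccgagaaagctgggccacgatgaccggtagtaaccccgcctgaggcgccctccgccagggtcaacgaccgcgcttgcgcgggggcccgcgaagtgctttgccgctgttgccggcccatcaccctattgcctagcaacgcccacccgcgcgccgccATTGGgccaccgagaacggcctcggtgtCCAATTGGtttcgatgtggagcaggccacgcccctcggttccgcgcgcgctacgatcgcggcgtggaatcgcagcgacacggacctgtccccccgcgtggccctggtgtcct
Thrsp: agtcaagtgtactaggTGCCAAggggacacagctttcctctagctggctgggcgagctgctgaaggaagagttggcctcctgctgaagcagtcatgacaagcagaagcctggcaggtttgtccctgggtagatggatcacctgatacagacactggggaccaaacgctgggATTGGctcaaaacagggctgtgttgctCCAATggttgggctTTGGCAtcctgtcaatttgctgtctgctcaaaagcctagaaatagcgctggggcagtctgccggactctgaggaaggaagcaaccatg
Mlxipl: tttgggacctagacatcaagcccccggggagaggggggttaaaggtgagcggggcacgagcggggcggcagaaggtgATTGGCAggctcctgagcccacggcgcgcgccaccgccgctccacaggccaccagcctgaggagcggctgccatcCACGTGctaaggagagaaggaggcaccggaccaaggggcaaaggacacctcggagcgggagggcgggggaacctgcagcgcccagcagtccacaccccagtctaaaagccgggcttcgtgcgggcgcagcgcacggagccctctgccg
Elovl6: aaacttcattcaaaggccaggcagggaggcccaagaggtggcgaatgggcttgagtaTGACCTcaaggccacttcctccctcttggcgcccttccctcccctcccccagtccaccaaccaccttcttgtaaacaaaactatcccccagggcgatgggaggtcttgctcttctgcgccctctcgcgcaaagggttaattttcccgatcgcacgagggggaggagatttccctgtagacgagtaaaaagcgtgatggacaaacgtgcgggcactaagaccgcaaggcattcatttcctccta

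The Fasn window held 3 NF-Y boxes, of which a forward match at -62 to -58 and a reverse match at -59 to -55 overlapped (positions are counted from the start site at 0). Thrsp held 2 NF-Y boxes, at -79 to -75 and -52 to -48, and 2 NFI single sites, at -234 to -229 and -38 to -33. The Mlxipl window held the E-box at -98 to -93 and an NFI single site at -172 to -167 that overlapped a reverse NF-Y box. Elovl6 held only a reverse nuclear receptor single site at -193 to -188. Among the windows that are not printed, Acly and Acacb each held 1 NF-Y box and 1 nuclear receptor single site, a window of Me1 held 1 NF-Y box, the other Mlxipl window held a sterol regulatory element and an NFI single site, and the Acaca window held none of the words. Whether that window lies at the main start of Acaca was not checked. Of 32851 mouse promoter windows of this length, 37.4% held an NF-Y box, 16.3% a nuclear receptor single site, 14.1% an NFI single site, 7.15% an E-box and 1.24% a sterol regulatory element. The NFI palindrome (0.0365% of windows) and the direct repeats spaced by 1 (0.0396%) or 4 bases (0.0152%) were in no window of these genes. These matches describe the letters of the windows, and no binding was measured here.

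On mm9, the build of the deposited values, the genes lie on 6 chromosomes. The genes of chromosome 11 are Fasn (chr11:120667254-120685492), Acly (chr11:100337667-100389314) and Acaca (chr11:83943174-84215153). Chromosome 5 holds Acacb (chr5:114596544-114700770) and Mlxipl (chr5:135582761-135614254). Scd2 (chr19:44368166-44381354) and Scd1 (chr19:44468941-44482199) stand 87.6 kb apart on opposite strands of chromosome 19, as members of a desaturase cluster whose coding sequences are alike, so their values rest on the uniquely aligned reads. The others are Elovl6 (chr3:129235304-129341413), Me1 (chr9:86474970-86589947) and Thrsp (chr7:104561448-104566240).

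Libraries held 7.73 to 14.62 M reads (M, 1000000), and all 10 genes passed the filter on low values (at least 1 FPKM, fragments per kilobase of gene and per 1000000 counted reads, in at least 3 libraries). Thrsp and Mlxipl passed it through day 7 libraries only. Nfia, which checks the labels, did not fall in the libraries labelled Cre, with day 7 ctrl libraries at 9.81, 9.15 and 9.70 FPKM and day 7 Cre libraries at 10.7, 10.1 and 9.49 FPKM, and was at 83.9 to 97.1 FPKM in Cre + NFIA and 95 to 111 FPKM in Cre + Δpro#3, where reads of the transgene are included. A gene value that counts the whole transcript does not show whether part of it was deleted, so directions below refer to the libraries labelled Cre. For its Cre-expressing cells the paper reports efficient recombination by PCR of genomic DNA. It also reports a nearly complete loss of NFIA mRNA by RT-qPCR and of NFIA protein by western blot. Of 8 adipocyte markers all 8 were above a mean of 1 FPKM in every cell type at day 7. Their summed level was 22300 to 25800 FPKM in ctrl, 4440 to 9510 in Cre, 20900 to 21200 in Cre + NFIA and 839 to 2150 in Cre + Δpro#3, against 68.4 to 109 at day 0. Of 5 endothelial markers 1 to 2 averaged above 1 FPKM in a group, and their sum at day 7 was 1.55 to 2.04 FPKM in ctrl, 2.65 to 2.78 in Cre, 1.98 to 2.62 in Cre + NFIA and 4.47 to 5.03 in Cre + Δpro#3. The defining Cdh5 and Emcn had at most 3 reads in any library, whereas Tek had up to 430 and Kdr up to 245. Of 5 leukocyte markers 1 to 2 averaged above 1 FPKM, with sums at day 7 of 3.84 to 5.13, 5.19 to 7.25, 3.90 to 5.50 and 6.95 to 7.55 FPKM in the same order. The defining Ptprc and Adgre1 had at most 3 reads, whereas Csf1r had up to 176 and Cd68 up to 131. Summed levels of 6 precursor markers were 502 to 598 FPKM in ctrl and Cre + NFIA and 1110 to 1520 FPKM in Cre and Cre + Δpro#3 at day 7, and summed smooth muscle and mural markers were 83.3 to 178 FPKM and 189 to 306 FPKM in the same groups. The mural sum was mostly Acta2, and of its 4 genes tested Acta2 (0.49) and Cnn1 (0.35) were higher and Myh11 (-1.17) and Cspg4 (-0.65) lower in Cre than in ctrl by the adjusted p (log2 differences). The adipocyte, precursor and mural sums of Cre did not overlap those of ctrl, Cre + NFIA or Cre + Δpro#3, and their part in the results was not tested. The precursor sums of Cre (up to 1250 FPKM) and Cre + Δpro#3 (from 1260 FPKM) nearly met and were mostly Ly6a. Between Cre + Δpro#3 and Cre, 1 precursor marker was higher by the adjusted p, 1 was lower and 4 did not pass. Of the 4 mural genes tested 1 was higher there and 3 did not pass. In bulk RNA fewer adipocytes and less RNA per adipocyte cannot be told apart.

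**Figure D1:**
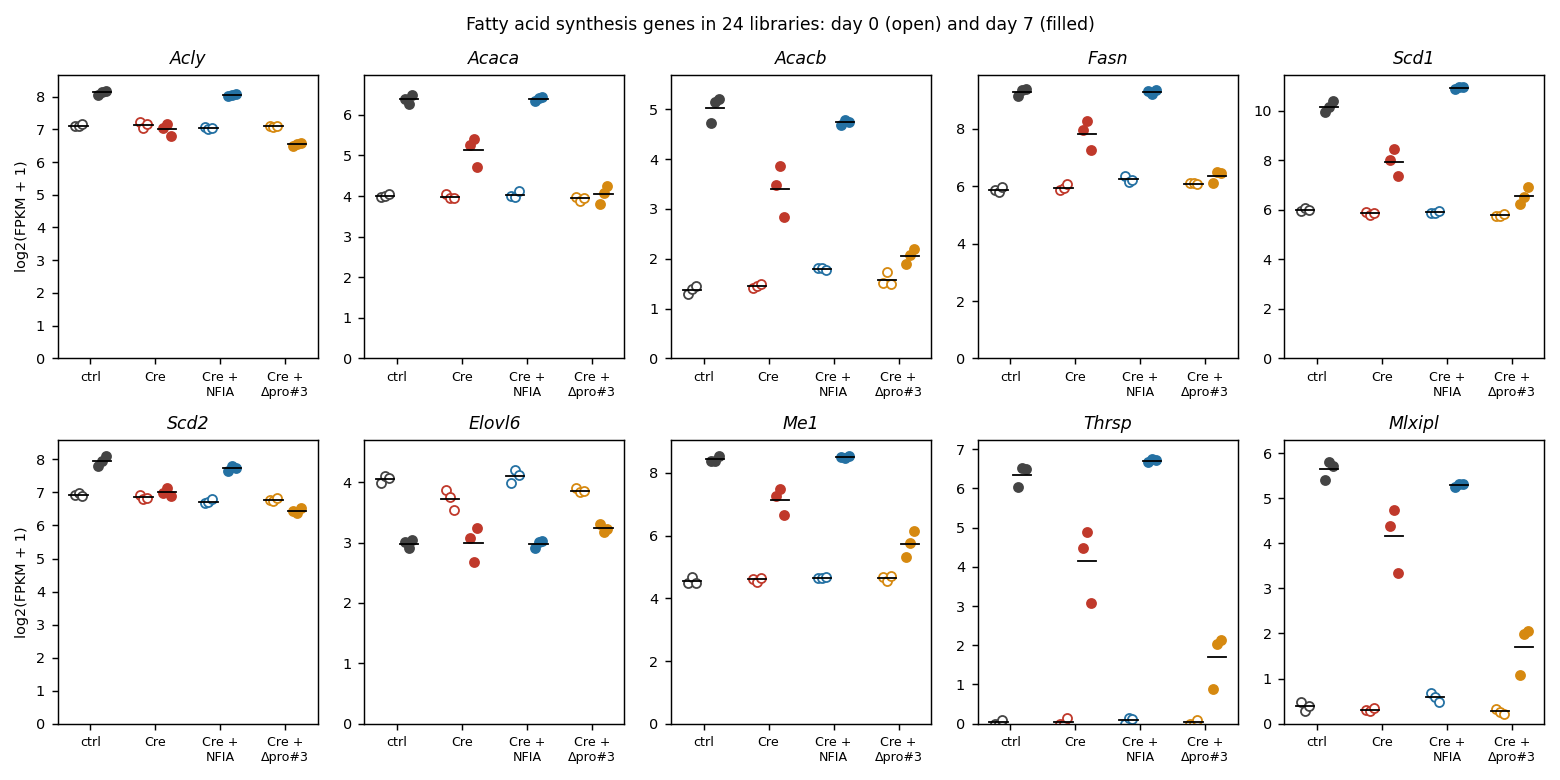
Level of each gene in the 24 libraries as log2(FPKM + 1), one panel per gene with its own axis from 0, with open points for day 0, filled points for day 7 and lines for the mean of 3 libraries. At day 7, 9 genes step down from ctrl to Cre, up again in Cre + NFIA and down furthest in Cre + Δpro#3, while Elovl6 is lower at day 7 than at day 0 in each cell type.

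In ctrl cells 9 of the 10 genes were higher at day 7 than at day 0 and Elovl6 was lower. A gene is called below when limma gave a Benjamini-Hochberg adjusted p under 0.05 over the 12640 genes tested and a change of at least 3-fold on the log2(FPKM + 1) scale, and changes are given on that scale unless named as an FPKM ratio. By this rule 7 members were called higher at day 7 (5.64% of all genes were). By the adjusted p alone 9 were higher (32.9% of all genes) and 1 was lower (38.1% of all genes). Thrsp and Mlxipl passed the filter only where they are high, so their calls over differentiation carry no weight, and of the other 8 members 5 were called higher and 7 were higher by the adjusted p. Day 0 and day 7 libraries did not overlap for any of the 10, as for 71.0% of all genes tested.

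The synthesis enzymes covered a wide range of change. The 3 ctrl libraries held Fasn at 56.9, 54.7 and 61.5 FPKM before induction and at 568, 659 and 674 FPKM by day 7, an FPKM ratio of 11.0 and a log2 change of 3.43 (SE 0.16, adjusted p = 5.34e-14). Acacb, whose malonyl-CoA is made at the mitochondrion, went from 1.61 ± 0.14 FPKM (SD, n = 3) to 32.0 ± 5.56 FPKM, a log2 change of 3.65 (SE 0.17, adjusted p = 5.33e-14). Acaca, the cytosolic carboxylase, was at 15.0 ± 0.39 and 83.1 ± 6.28 FPKM, a log2 change of 2.39 (SE 0.12, adjusted p = 2.81e-13). All 3 passed the 3-fold rule. Acly, upstream of them, was already abundant at 138 ± 3.67 FPKM and reached 280 ± 11.7 FPKM, a log2 change of 1.02 (SE 0.07, adjusted p = 2.28e-11) that stayed under 3-fold.

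Of the genes that supply or modify the product, Scd1 and Me1 changed most. Scd1 levels of 60.3, 66.7 and 62.7 FPKM before induction became 978, 1130 and 1320 FPKM by day 7, an FPKM ratio of 18.1 (log2 change 4.15, SE 0.18, adjusted p = 2.82e-14). Me1 was at 22.5 ± 1.68 and 347 ± 25.0 FPKM (log2 change 3.89, SE 0.17, adjusted p = 1.83e-14). The neighbouring Scd2 started higher than Scd1, at 122 ± 3.19 FPKM, and ended lower, at 247 ± 25.7 FPKM, a log2 change of 1.01 (SE 0.07, adjusted p = 3.30e-11). Elovl6 went from 14.9, 16.2 and 15.7 FPKM to 7.02, 6.49 and 7.24 FPKM, a log2 change of -1.07 (SE 0.11, adjusted p = 1.03e-08), so that the elongase was at 0.443 times its day 0 level.

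Both regulators were near or below detection before induction. Thrsp had at most 1 read in any day 0 library and 65.0, 91.1 and 88.6 FPKM in ctrl at day 7, which is at least 366-fold higher than a floor of 3 reads per library. Mlxipl levels of 0.406, 0.216 and 0.309 FPKM before induction became 41.6, 54.5 and 51.2 FPKM by day 7, an FPKM ratio of 158. No day 0 library came within reach of the day 7 libraries for either gene. Together the 10 genes took 0.248% ± 0.004 of the reads of ctrl libraries at day 0 and 1.70% ± 0.17 at day 7 (SD, n = 3).

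**Figure D2:**
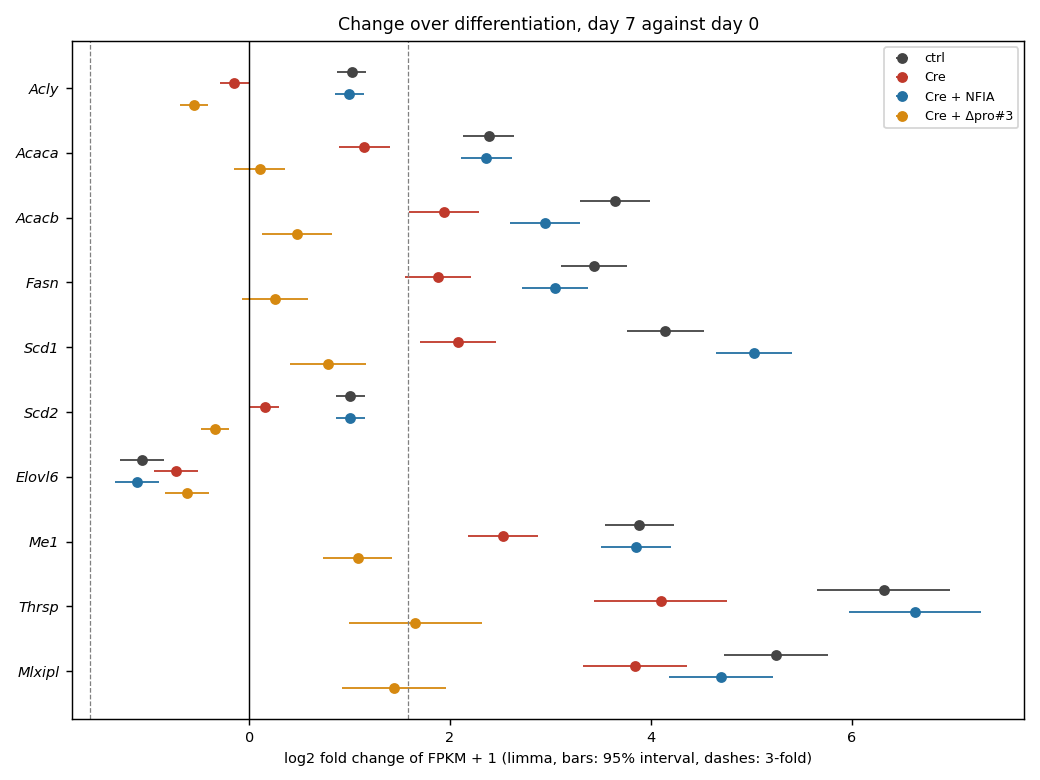
Change from day 0 to day 7 in each cell type as log2 fold change of FPKM + 1 from limma, with bars for the 95% interval and dashed lines at 3-fold. Points of ctrl and Cre + NFIA lie furthest right for every gene but Elovl6, and those of Cre + Δpro#3 lie left of 0 for Acly, Scd2 and Elovl6.

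In Cre cells 6 members were called higher at day 7 than at day 0 (2.26% of all genes), 7 were higher by the adjusted p alone (30.0%) and 1, Elovl6, was lower (21.6%). Without Thrsp and Mlxipl these were 4 called and 5 by the adjusted p, of 8. Acly and Scd2 did not pass, with log2 changes of -0.15 (95% interval -0.29 to -0.01, adjusted p = 0.0761) and 0.15 (0.01 to 0.30, adjusted p = 0.0673). The differences of means over differentiation were 30.4% of those in ctrl for Fasn, 29.3% for Acaca, 27.0% for Acacb and 37.1% for Me1. They were 36.7% for Mlxipl, 23.4% for Thrsp, 18.3% for Scd1, 10.6% for Scd2 and -9.23% for Acly. The adipocyte markers Adipoq, Fabp4 and Plin1 were at 26.4%, 28.2% and 37.3%. Thrsp reached 21.3, 28.7 and 7.48 FPKM, at least 59.7-fold above its day 0 floor. The 10 genes took 0.588% ± 0.164 of the reads (SD, n = 3).

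In Cre + NFIA cells 7 members were called higher at day 7 (5.78% of all genes), 9 were higher by the adjusted p alone (31.8%) and Elovl6 was lower (38.3%). Without Thrsp and Mlxipl these were 5 called and 7 by the adjusted p, of 8, the counts found in ctrl. The differences over differentiation were 95.9% of that in ctrl for Fasn, 99.5% for Acaca, 104% for Me1 and 92.4% for Acly. Acacb (76.7%) and Mlxipl (77.3%) lay below ctrl and Scd1 (174%) and Thrsp (127%) above it, as ratios of group means with no test. The 10 genes took 2.05% ± 0.05 of the reads, the highest share of the 8 groups. Of the 2 most abundant, Scd1 took 0.938% against 0.553% in ctrl at day 7, and Fasn took 0.624% against 0.63%.

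With Δpro#3 only Thrsp was called higher at day 7 (1.14% of all genes), 5 members were higher by the adjusted p alone (24.5%) and 3 were lower (17.0%). Without Thrsp and Mlxipl none of 8 was called, and 3 were higher and 3 lower by the adjusted p. Day 0 and day 7 libraries did not overlap for 8 of the 10, where 53.6% of all genes tested did not. Thrsp reached 0.855, 3.08 and 3.43 FPKM, from 11 reads upward, which is at least 11.3-fold above its floor, and its call was lost without replicate 2 or 3 of the day 7 Cre + Δpro#3 libraries and was joined by that of Mlxipl without replicate 1. Besides Thrsp, the genes higher by the adjusted p were Me1 (1.08, an FPKM ratio of 2.22), Scd1 (0.79), Acacb (0.48) and Mlxipl (an FPKM ratio of 11.6 from a low level), of which Acacb did not pass under 6 other settings. Fasn was at 67.5 ± 1.55 FPKM before and 81.4 ± 12.1 FPKM after, a log2 change of 0.26 (95% interval -0.07 to 0.58, adjusted p = 0.206), and Acaca changed by 0.10 (-0.15 to 0.36, adjusted p = 0.531). Acly fell by 0.55 on the log2 scale (SE 0.07, adjusted p = 1.44e-06), from 137, 133 and 136 FPKM to 88.1, 92.8 and 95.6 FPKM, and Scd2 fell by 0.34 (SE 0.07, adjusted p = 4.39e-04), from 109, 106 and 113 FPKM to 85.1, 82.8 and 90.5 FPKM. For both genes every day 7 library lay below every day 0 library of that cell type. The 10 genes took 0.257% ± 0.033 of the reads, against 0.244% ± 0.003 at day 0.

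The comparison of Cre with ctrl at day 7 asks what the Cre vector changed in differentiated cells. All members but Elovl6 were lower, with no overlap between groups for 9 of 10 (24.5% of all genes lay lower without overlap), and their median log2 difference was -1.39 against 0.09 over all genes tested. By the 3-fold rule 3 members were called lower (1.27% of all genes), Acacb, Scd1 and Thrsp. By the adjusted p alone 9 were lower (22.7%) and none was higher (36.1%). Without Cre replicate 2, the highest of the Cre libraries, the called number was 5.

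Scd1 was at 256, 347 and 162 FPKM in the Cre libraries, which all lay below the lowest ctrl library at 978 FPKM, a 4.49-fold lower mean (log2 difference -2.22, SE 0.24, adjusted p = 9.95e-06). Thrsp was 4.26-fold lower (log2 difference -2.20, SE 0.41, adjusted p = 6.33e-04) and Acacb 3.22-fold lower, with Cre libraries at 10.1, 13.6 and 6.16 FPKM against 25.6, 34.6 and 35.7 FPKM for ctrl (log2 difference -1.64, SE 0.21, adjusted p = 3.65e-05). Fasn was at 246, 309 and 154 FPKM, 2.68-fold lower (log2 difference -1.47, SE 0.20, adjusted p = 5.84e-05). These 4 were spread more widely among the Cre libraries than among those of ctrl relative to their mean, with replicate 2 highest and replicate 3 lowest in each. The remaining members that passed were Mlxipl (-1.49), Me1 (-1.31), Acaca (-1.26), Acly (-1.13) and Scd2 (-0.95). Acly and Scd2 in Cre were at 128 ± 17.2 and 127 ± 10.9 FPKM, near their day 0 levels. Elovl6 differed by 0.01 (95% interval -0.24 to 0.27, adjusted p = 0.942), and its order in Cre was turned round, with replicate 3 highest at 8.42 FPKM and replicate 2 lowest at 5.38 FPKM.

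Full-length NFIA in Cre cells was compared with Cre alone to see which genes it restored. Again 9 members differed and Elovl6 did not pass. By the 3-fold rule 2 were called higher (2.13% of all genes), Scd1 and Thrsp, and by the adjusted p alone 9 were higher (27.0%) and none was lower (35.9%). Their median log2 difference was 1.31 against -0.06 over all genes. Without Cre replicate 2 the called number was 4.

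The Scd1 libraries of Cre + NFIA held 1860, 1980 and 1980 FPKM, a narrow range 7.62-fold above the mean of Cre (log2 difference 2.99, SE 0.24, adjusted p = 5.67e-07). Thrsp was at 102, 106 and 104 FPKM, 5.44-fold above Cre (log2 difference 2.56, SE 0.41, adjusted p = 1.67e-04). Fasn was at 636, 598 and 649 FPKM, 2.65-fold above Cre (log2 difference 1.46, SE 0.20, adjusted p = 4.60e-05). In each of these genes the Cre + NFIA libraries were closer together than those of Cre. The other log2 differences were 1.37 for Me1, 1.35 for Acacb, 1.26 for Acaca, 1.14 for Mlxipl, 1.04 for Acly and 0.73 for Scd2. Elovl6 was at 6.91 ± 0.33 FPKM with NFIA and 7.08 ± 1.55 FPKM in Cre (log2 difference -0.01, 95% interval -0.27 to 0.24, adjusted p = 0.936).

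Δpro#3 in Cre cells was compared with Cre alone to see what NFIA does without the pro#3 segment. The 9 members that were higher with full-length NFIA were lower with the mutant, with no overlap between the libraries (15.5% of all genes lay lower without overlap). By the 3-fold rule 2 were called lower (0.593% of all genes), Thrsp and Mlxipl, and by the adjusted p alone 9 were lower (10.0%) and none was higher (7.70%). The median log2 difference was -1.36 against 0.02 over all genes. Without Cre replicate 3, the lowest of the Cre libraries, the called number was 6.

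Mlxipl was at 1.11, 2.98 and 3.18 FPKM with the mutant against 19.8, 25.6 and 9.14 FPKM in Cre, a 7.49-fold lower mean (log2 difference -2.44, SE 0.32, adjusted p = 6.82e-04). Thrsp was 7.79-fold lower (log2 difference -2.46, SE 0.41, adjusted p = 1.90e-03). The carboxylase Acacb was at 2.71, 3.22 and 3.57 FPKM, under the lowest Cre library of 6.16 FPKM (log2 difference -1.34, SE 0.21, adjusted p = 1.38e-03). Replicate 1 of the mutant was the lowest for all 3 genes. Fasn (-1.48), Me1 (-1.40), Scd1 (-1.38), Acaca (-1.09), Scd2 (-0.56) and Acly (-0.46) were lower by the adjusted p. Elovl6, at 8.44 ± 0.42 FPKM, differed from Cre by 0.24 (95% interval -0.01 to 0.50, adjusted p = 0.182). Against full-length NFIA directly, 7 members were called lower (4.60% of all genes), 9 by the adjusted p alone (28.9%), and the FPKM ratio of full-length NFIA to the mutant was 42.4 for Thrsp, 20.5 for Scd1, 15.8 for Mlxipl, 8.13 for Acacb and 7.71 for Fasn. Elovl6 was 0.25 higher with the mutant than with full-length NFIA (95% interval 0.00 to 0.51, adjusted p = 0.0697). The comparisons with Cre share the Cre libraries, and both directions are read from the same 3 samples.

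**Figure D3:**
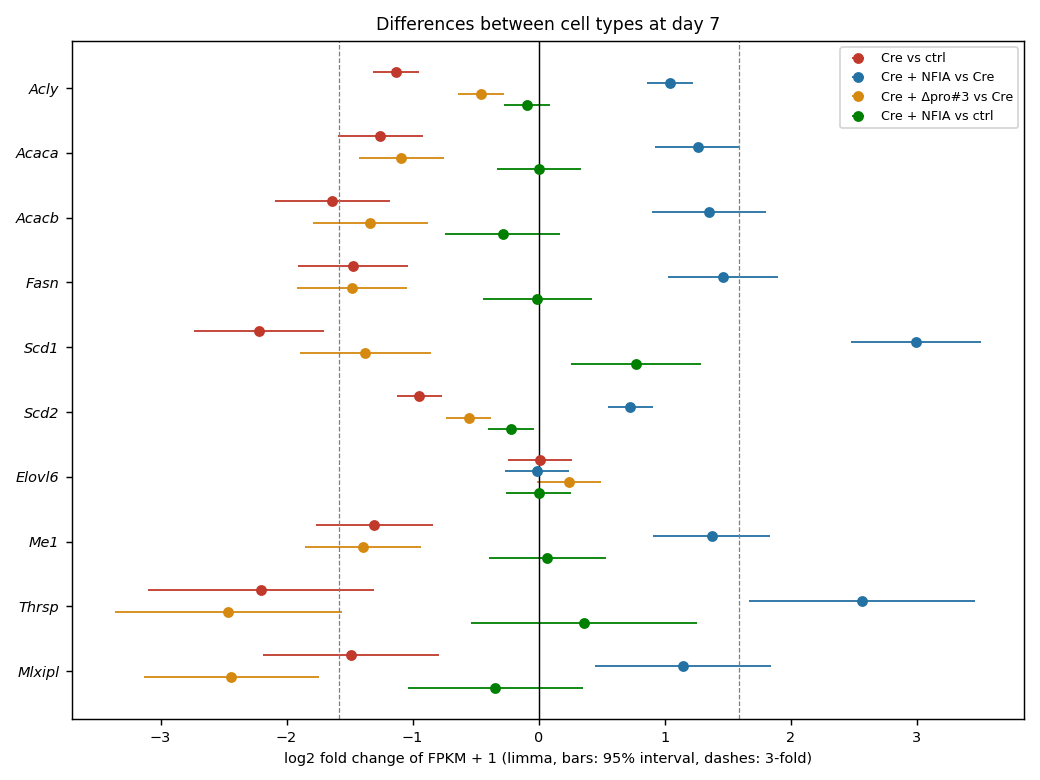
Differences between cell types at day 7 for each gene as log2 fold change of FPKM + 1 from limma, with bars for the 95% interval and dashed lines at 3-fold. For 9 genes the points of Cre against ctrl and of Cre + Δpro#3 against Cre lie left of 0 and those of Cre + NFIA against Cre lie right of 0, and all intervals of Elovl6 include 0.

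Between Cre + NFIA and ctrl at day 7 no member was called by limma (0.301% of all genes were, in either direction), and by the adjusted p alone 1 was higher (8.81% of all genes; 18.0% passed in either direction). That gene was Scd1, at 1140 ± 173 FPKM in ctrl and 1940 ± 66.4 FPKM with NFIA, a log2 difference of 0.77 (SE 0.24, adjusted p = 0.0426), with every NFIA library above every ctrl library. The difference did not pass under 11 of 16 other settings, which include each library left out. Over all 16 the adjusted p ran from 0.00479 to 0.138 and the log2 difference from 0.66 to 0.88. Scd2, its neighbour, was at 247 ± 25.7 and 211 ± 11.1 FPKM (log2 difference -0.22, 95% interval -0.40 to -0.04, adjusted p = 0.0883). Fasn differed by -0.01 (95% interval -0.45 to 0.42) and Acaca by 0.00 (-0.34 to 0.34). Thrsp (0.36, -0.53 to 1.26) and Mlxipl (-0.34, -1.04 to 0.35) did not pass, although the libraries of the groups did not overlap for either gene, and Mlxipl passed in a fit of these groups alone (adjusted p = 0.0459). In all 4 of 10 members did not overlap between these groups, as for 39.6% of all genes. In order of mean level at day 7, Scd1 ran from Cre + NFIA through ctrl and Cre to Cre + Δpro#3, and Fasn from ctrl through Cre + NFIA and Cre to Cre + Δpro#3, where ctrl and Cre + NFIA did not differ beyond their spread.

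Before differentiation the 4 cell types were close. No member passed between Cre and ctrl (3.33% of all genes passed in either direction by the adjusted p), where the lowest adjusted p among members was 0.0621 for Elovl6 at a log2 difference of -0.33. None passed between Cre + Δpro#3 and Cre (18.3% of all genes). Between Cre + NFIA and Cre 4 were higher by the adjusted p (14.7% of all genes) and none reached 3-fold. These were Elovl6 (0.38, adjusted p = 7.53e-03), Acacb (0.34, adjusted p = 9.78e-03), Fasn (0.29, adjusted p = 7.50e-03) and Mlxipl (0.28, adjusted p = 0.0182). Mlxipl levels were 0.606, 0.513 and 0.402 FPKM with NFIA against 0.238, 0.209 and 0.270 FPKM for Cre, so both groups were low. Mlxipl and Thrsp passed the filter only through day 7 libraries, so their part in these day 0 counts carries no weight. With at most 1 read in any day 0 library, Thrsp could hardly pass here. The 10 genes took 0.243% to 0.252% of the reads in the 4 cell types.

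Differences of the change over differentiation (the day 7 difference minus the day 0 difference, over all 24 libraries) were tested next. For Cre against ctrl 3 members were called lower (1.27% of all genes) and 9 were lower by the adjusted p alone (19.5%). For Cre + NFIA against Cre 2 were called higher (1.70%), 9 were higher by the adjusted p alone (18.8%) and Elovl6 was lower (30.1%), by -0.39 (SE 0.15, adjusted p = 0.0356). That value for Elovl6 combined a higher day 0 level with NFIA (16.2 ± 1.30 FPKM against 12.3 ± 1.56 FPKM) with like levels at day 7. It did not pass under 10 other settings, and the value of Mlxipl in that comparison (0.86, SE 0.35, adjusted p = 0.0479) did not pass under 16. For Cre + Δpro#3 against Cre 3 were called lower (0.736%) and 9 by the adjusted p alone (10.4%). These counts include Thrsp and Mlxipl, which passed the filter only through day 7 libraries, so their part in them carries no weight. Without these 2 genes, Acacb and Scd1 were called for Cre against ctrl and Scd1 for Cre + NFIA against Cre. For Cre + Δpro#3 against Cre only Fasn was then called. The numbers called rested in part on single libraries: without Cre day 7 replicate 2 it was 5 for Cre against ctrl, and without Cre day 7 replicate 3 it was 6 for Cre + Δpro#3 against Cre.

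The balance between related enzymes was read from FPKM ratios within each library, on the length-corrected scale. At day 0 Scd2 exceeded Scd1, with Scd1 over Scd2 at 0.489 to 0.560 as means of the 4 cell types. At day 7 the ratio was 4.43, 4.59 and 4.86 in ctrl, 2.04, 2.49 and 1.37 in Cre, 9.38, 9.0 and 9.20 in Cre + NFIA and 0.876, 1.09 and 1.32 in Cre + Δpro#3. No pair of the 4 cell types overlapped, with the mutant next to Cre at 1.32 and 1.37. Acaca over Acacb went the other way over differentiation, from 9.41 ± 0.66 to 2.66 ± 0.54 in ctrl, from 8.58 ± 0.73 to 3.64 ± 0.53 in Cre, from 6.23 ± 0.51 to 3.23 ± 0.06 in Cre + NFIA and from 7.31 ± 1.24 to 4.91 ± 0.13 in Cre + Δpro#3 (SD, n = 3). The cytosolic carboxylase was the higher of the pair in all 24 libraries. At day 0 the ratio with NFIA (5.92 to 6.81) lay below the lowest of Cre (7.94), which goes with the higher Acacb there.

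**Figure D4:**
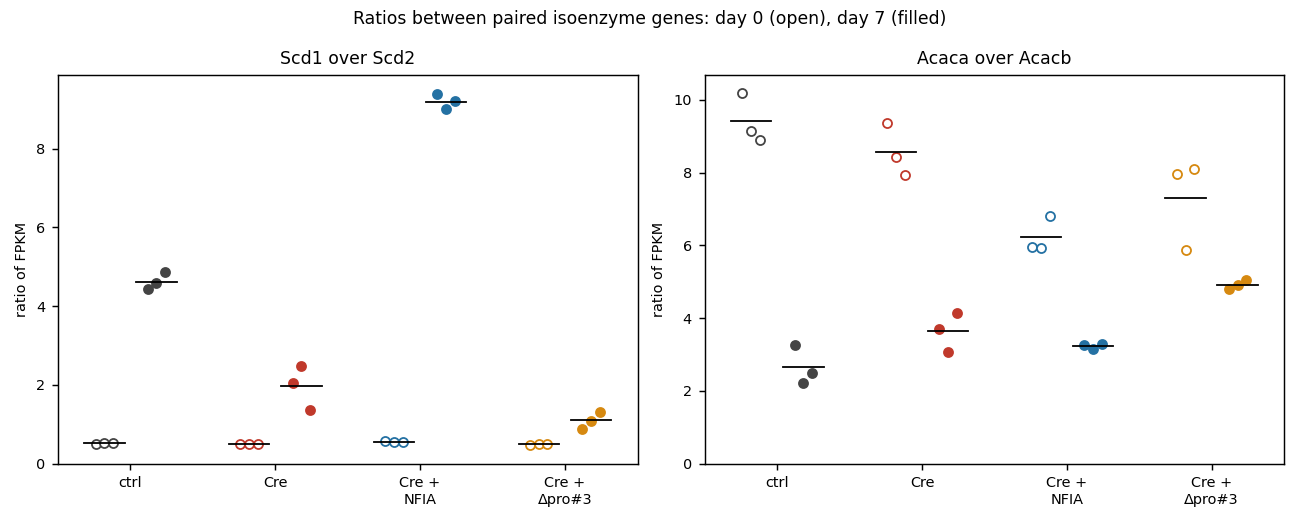
FPKM ratios of Scd1 to Scd2 and of Acaca to Acacb in each library, with open points for day 0, filled points for day 7 and lines for the mean of 3 libraries. The Scd1 to Scd2 ratio at day 7 is 9.19 with full-length NFIA and 1.10 with Δpro#3, and the Acaca to Acacb ratio is lower at day 7 than at day 0 in every cell type.

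Set against Adipoq, a hormone gene of mature adipocytes, the members did not all keep the same proportion at day 7. Ratios were taken to this marker only. Its day 7 means were 1890 FPKM in ctrl, 499 in Cre, 1790 in Cre + NFIA and 117 in Cre + Δpro#3. Those of the adipocyte marker Plin1 were 469, 175, 473 and 41.6 FPKM in the same order, so ratios to Plin1 would differ between cell types in another way. Fasn over Adipoq was 0.335 ± 0.018 in ctrl, 0.475 ± 0.006 in Cre, 0.351 ± 0.005 in Cre + NFIA and 0.836 ± 0.424 in Cre + Δpro#3 (SD, n = 3). Scd1 over Adipoq was 0.605 ± 0.078, 0.508 ± 0.020, 1.09 ± 0.06 and 0.951 ± 0.444 in the same order, and the libraries with NFIA (1.03 to 1.15) lay above all those of ctrl (0.546 to 0.694). The mutant libraries were at 1.32, 0.635 and 0.55 for Fasn and 1.46, 0.638 and 0.756 for Scd1, highest in replicate 1. At day 0 the mutant cells already held Fasn, Scd1 and Elovl6 at 67.5, 53.4 and 13.5 FPKM, with Adipoq at 0.911 FPKM. Ratios to Adipoq are therefore not levels per adipocyte, and the part of that earlier expression was not tested. Thrsp over Adipoq was 0.043 ± 0.006 in ctrl, 0.036 ± 0.011 in Cre and 0.058 ± 0.003 in Cre + NFIA. With Δpro#3 it was 0.020 ± 0.003, whereas Mlxipl over Adipoq stood at 0.021 ± 0.001 for the mutant and also 0.021 ± 0.001 for full-length NFIA. Elovl6 over Adipoq was 0.0037 ± 0.0003 in ctrl, 0.0039 ± 0.0002 in Cre + NFIA, 0.0163 ± 0.0092 in Cre and 0.0946 ± 0.0686 in Cre + Δpro#3. The mutant libraries were at 0.174, 0.0568 and 0.0531, highest in replicate 1, where Adipoq was lowest at 51.1 FPKM. The number of members with both the same highest and the same lowest library as Adipoq at day 7 was 2 of 10 in ctrl, 9 in Cre, 2 in Cre + NFIA and 7 in Cre + Δpro#3. The share of all genes with that order was not computed, so these counts cannot be read as a trait of the members.

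Other genes of the pathway, from lists chosen with earlier results of these data known, were counted by the adjusted p at day 7. The shares of all genes to read them against are 22.7% lower and 36.1% higher in Cre than ctrl, 27.0% higher and 35.9% lower with NFIA than in Cre, and 10.0% lower and 7.70% higher with Δpro#3 than in Cre. Of 12 genes that supply carbon or NADPH, 11 were lower in Cre than ctrl, 11 higher with NFIA than in Cre and 10 lower with Δpro#3 than in Cre. The 4 with the widest difference for NFIA against Cre were Acss2 (2.38), which activates acetate, Pcx (1.80), pyruvate carboxylase, Mdh1 (1.71), cytosolic malate dehydrogenase, and Mpc1 (1.57), a subunit of the mitochondrial pyruvate carrier. The pentose phosphate gene Pgls did not pass in any of the 3, at -0.29, 0.23 and -0.25, and was picked here after its values were seen.

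Of 14 tested genes of elongation and desaturation (17 listed), 11 were lower and 1 higher in Cre, 11 higher and 2 lower with NFIA, and 5 lower and 1 higher with the mutant. Scd3 (2.09 for NFIA against Cre), Elovl3 (2.06), Hsd17b12 (1.54) and Elovl4 (1.50) led. Scd3 is like Scd1 in sequence and was low, at 6.50 FPKM with NFIA and 3.66 FPKM in ctrl, so its value is uncertain. Elovl3, an elongase of saturated and monounsaturated chains, was at 56.3 FPKM in ctrl, 7.50 FPKM in Cre, 32.4 FPKM with NFIA and 1.33 FPKM with Δpro#3 at day 7, a pattern unlike that of Elovl6.

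The regulators and the genes listed under malonyl-CoA use were more mixed in direction. Of 14 regulators, 8 were lower and 3 higher in Cre, 8 higher and 4 lower with NFIA, and 7 lower and none higher with the mutant. Nr1h3 (LXRα, 1.78 for NFIA against Cre), Mid1ip1 (a partner of Spot 14, 1.65), Srebf1 (SREBP1, 1.64) and Insig1 (which retains SREBP in the endoplasmic reticulum, 1.45) had the widest differences. Srebf1 was at 307 FPKM in ctrl, 113 FPKM in Cre, 349 FPKM with NFIA and 53.2 FPKM with Δpro#3, the same order of cell types as Scd1. The list named malonyl-CoA use held Mlycd, carnitine palmitoyltransferase genes (Cpt) and subunits of AMP-activated protein kinase (Prka). Not all of their products use malonyl-CoA. Of its 8 tested genes (9 listed), 5 were lower and 2 higher in Cre, 5 higher and 1 lower with NFIA, and 3 lower with the mutant. Cpt2 (1.80), Prkaa2 (1.35), Mlycd (0.90) and Cpt1a (0.33) were widest for NFIA against Cre. Of 13 sterol synthesis genes found of 14 listed, all 13 were lower in Cre, all 13 higher with NFIA and 9 lower with the mutant, led by Pmvk (1.93), Fdps (1.50), Mvd (1.40) and Lss (1.19). The median differences for Cre against ctrl were -1.39 for the 10 members, -1.26 for carbon and NADPH supply, -0.78 for sterol synthesis, -0.68 for elongation and desaturation, -0.48 for regulators and -0.16 for malonyl-CoA use, against 0.09 over all genes tested. All 8 adipocyte markers were lower in Cre, higher with NFIA and lower with the mutant, with medians of -1.85, 1.67 and -2.17.

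**Figure D5:**
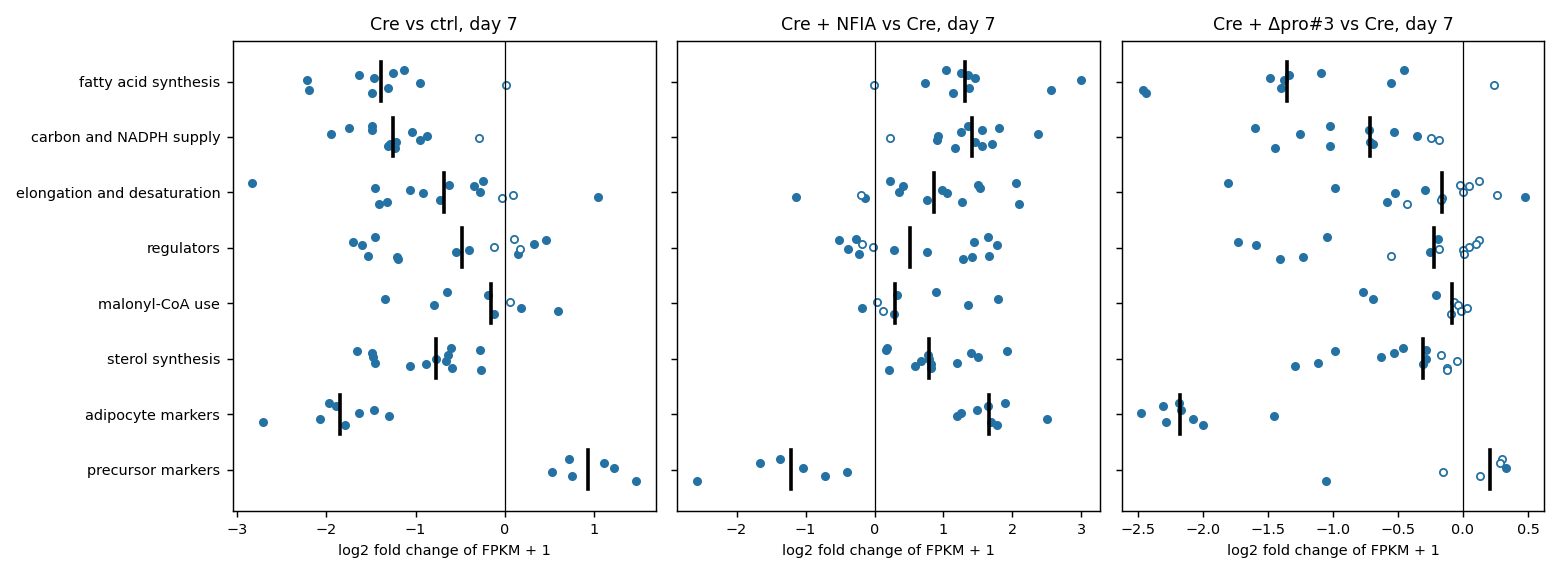
Log2 fold change of FPKM + 1 at day 7 for each gene of 8 lists in 3 comparisons, with filled points where the limma adjusted p was under 0.05, open points where it was not and a bar at the list's median. The medians of the fatty acid synthesis genes are -1.39, 1.31 and -1.36, and those of the adipocyte markers are -1.85, 1.67 and -2.17.

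Likeness between genes was measured as Pearson's r of log2(FPKM + 1) over the 8 group means, which share the same libraries and the same separation of days and is given as a description. Among the members Me1 and Thrsp were most alike (0.9991), then Acacb and Fasn (0.9978), while Acly was nearest to Scd2 (0.9757). Elovl6 was negatively related to each other member, from -0.44 with Acly to -0.91 with Me1. Over all genes tested, those nearest to Fasn were Adap1 (0.9995), Tmem135 (0.998) and Acacb. Nearest to Scd2 were Mycbp (0.9944), Psenen (0.9829) and Elmod2 (0.9797), and nearest to Mlxipl were Mir126b (0.998), Acer2 (0.9971) and Nabp1 (0.997), where the value of Mir126b, a short microRNA gene, is uncertain.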

How the data were processed

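RNA-seq of 24 ingSVF libraries was used. The authors aligned stranded reads to mm9 with STAR 2.5.3a, kept uniquely aligned reads, counted them per gene on the matching strand and deposited FPKM. Of the values 100% were whole multiples of 1 read (within 0.1 read), which gave library totals of 7.73 to 14.62 M reads (M, 1000000) and a floor of 3 reads per library for counting error only, since no molecular identifiers were used. Values were transformed to log2(FPKM + 1), which makes changes of low genes smaller, and 12640 genes with at least 1 FPKM in at least 3 libraries were tested two-sided with limma 3.58.1 (trend) in R 4.3.3. Day comparisons used the 12 libraries of that day, others all 24. Because the unit was FPKM, the count test written as a branch of the design was not used. The named genes were the 10 members, Nfia, up to 4 genes per pathway list with the largest difference for Cre + NFIA against Cre at day 7, and the nearest genes by correlation. Members, lists and tests were chosen with earlier results of these data known. Groups came from the sample titles. Alternatives were pseudocounts of 0.1 and 5, other filters, scalings and models, voom on recovered reads, a replicate block, a 2-fold threshold, each library left out and, chosen after seeing the data, no fold threshold. In 24 replicate pairs chi-square per degree of freedom was 2.17 to 15.1, so no library repeated another. The test was tested on simulated data. Gene positions are from GENCODE vM1 on NCBIM37 and promoters from RefSeq on GRCm38.p6, which were not combined. Gene symbols turned into dates (26 rows) or shared between rows (4 rows) affect no member.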

Additional observations from a re-analysis of the deposited data

Results flagged for a closer look

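Changes over differentiation that differed between cell types at 3-fold or more (limma interaction, log2 scale, adjusted p over all genes) were found for 8 combinations of gene and comparison. For Cre against ctrl they were -1.71 for Acacb (SE 0.24, adjusted p = 6.06e-06), -2.06 for Scd1 (SE 0.26, adjusted p = 1.91e-06) and -2.22 for Thrsp (SE 0.45, adjusted p = 3.64e-04). For Cre + NFIA against Cre they were 2.94 for Scd1 (SE 0.26, adjusted p = 1.26e-08) and 2.53 for Thrsp (SE 0.45, adjusted p = 8.29e-05). For Cre + Δpro#3 against Cre they were -1.62 for Fasn (SE 0.22, adjusted p = 6.00e-05), -2.44 for Thrsp (SE 0.45, adjusted p = 7.30e-04) and -2.40 for Mlxipl (SE 0.35, adjusted p = 1.14e-04). Thrsp had at most 1 read in each day 0 library, so its fitted values depend on the pseudocount. Both Thrsp and Mlxipl passed the filter only through day 7 libraries, so their values here carry no weight. The remaining combinations are those of Acacb, Scd1 and Fasn. Groups of 3 libraries were not tested for a library far from the others.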

How the results depend on the processing

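No value of a member reversed under the alternatives: of 2580 values, 2507 kept their direction and side of the adjusted p threshold or passed it in neither fit, 51 lost it and 22 gained it. Among the first, 28 values of 11 results changed sign while passing in neither fit. The cause was not tested for any change named here. The number of members called at 3-fold moved by over 1.5 times as follows. For Cre against ctrl at day 7 (3) it was 5 with median-of-ratios size factors, 8 at 2-fold, 9 with no fold threshold and 2 to 5 with a library left out. For Cre + NFIA against Cre (2) it was 8, 9 and 2 to 4 in the same order from 2-fold on. For Cre + Δpro#3 against Cre (2) it was 1 with a pseudocount of 5, 7 at 2-fold, 9 with no fold threshold and 2 to 6 with a library left out. For Cre + NFIA against ctrl (0) and, at day 0, against Cre (0) it was 1 and 4 with no fold threshold. For day 7 against day 0 in Cre + Δpro#3 (1) it was 2 with a pseudocount of 0.1 or voom, 0 with a pseudocount of 5 or quantile normalization, 3 at 2-fold, 8 with no fold threshold and 0 to 2 with a library left out. For the differences between days it was, for Cre against ctrl (3), 8 at 2-fold, 9 with no fold threshold and 2 to 5 with a library left out, for Cre + NFIA against Cre (2), 1 with voom, 7 at 2-fold and 10 with no fold threshold, and for Cre + Δpro#3 against Cre (3), 1 with a pseudocount of 5, 7 at 2-fold, 9 with no fold threshold and 2 to 6 with a library left out.

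The replicate block left the number of members called in every comparison as it was (3 for Cre against ctrl, 2 for Cre + NFIA against Cre, 2 for Cre + Δpro#3 against Cre and 7 for Cre + Δpro#3 against Cre + NFIA at day 7). By the adjusted p alone it moved 3 member values across the threshold: Scd1 for Cre + NFIA against ctrl at day 7 (adjusted p = 0.0536), Mlxipl for the difference between days of Cre + NFIA against Cre (0.053) and Elovl6 for Cre + Δpro#3 against Cre + NFIA at day 7 (0.0492). Same-numbered libraries did not deviate together (mean correlation -0.159 to 0.056, no comparison with all 3 over 0.1), so the numbers do not show a pairing.

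Median-of-ratios scaling moved the median of all genes by -0.112 for Cre against ctrl and -0.104 for Cre + Δpro#3 against Cre + NFIA at day 7, and by -0.114 and 0.110 for the differences between days of Cre against ctrl and Cre + NFIA against Cre. The share of genes passing the adjusted p that were higher was then 46.3% against 61.4% for Cre against ctrl and 53.7% against 43.0% for Cre + NFIA against Cre at day 7, and 46.3% against 60.3% and 52.0% against 38.5% for their differences between days. At day 0 it was 38.8% against 48.9% for Cre against ctrl, and 35.8% with quantile normalization, which gave 44.5% against 58.1% for day 7 against day 0 in Cre and 48.6% against 59.1% in Cre + Δpro#3. Among genes called at 3-fold the share that was higher was 71.3% against 58.6% for Cre + NFIA against Cre with median-of-ratios scaling. Depth limits the regulators most, since Thrsp had at most 1 read and Mlxipl as few as 6 reads in a day 0 library.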
